A study of Homo sapiens with 3 samples.

Results

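The genes described here encode 2 systems of contact and guidance signals: the ephrins with their Eph receptors, and the semaphorins with their plexin and neuropilin receptors. They were taken by symbol from the protein-coding genes of GENCODE 29 (EPHA and EPHB, EFNA and EFNB, SEMA3 to SEMA7, PLXNA to PLXND, NRP1 and NRP2). This gave 53 of the 52992 genes with a matched transcript: 14 Eph receptors, 8 ephrins, 20 semaphorins, 9 plexins and 2 neuropilins. Of these, 50 had 10 or more counts in at least 1 library and were among the 20828 genes tested. The others, EPHA6, EPHA7 and EPHB6, had at most 3 counts in any library. RNA came from TE5, an established human line of esophageal squamous cell carcinoma, so all values are from 1 line. The control was 1 library of cells given a scramble construct. The treated group was 2 libraries of cells given shKLF5, a short hairpin RNA against KLF5, a zinc-finger transcription factor of squamous epithelium. Cells of both groups were taken 48 h after transfection. The labels number the shKLF5 libraries 1 and 2 and do not state whether they are separate cultures or separate hairpins. The only replicate variation behind a p-value here is thus that between library 1 and library 2, which may be technical variation. The tests pool it over all genes, so a gene's own gap between the libraries sets only part of its p-value.

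Eph proteins are receptor tyrosine kinases that bind ephrins on the surface of a neighbouring cell. EphA receptors bind mostly the lipid-anchored ephrin-A ligands, EphB receptors mostly the transmembrane ephrin-B ligands, and signals run into both cells; in stratified epithelium they act in cell sorting, adhesion and boundary formation. Class 3 semaphorins are secreted and mostly need a neuropilin beside a plexin, while classes 4 to 7 are held at the membrane. Plexins act inside the cell on small GTPases, the cytoskeleton and integrin adhesion.

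The libraries held 32720563 to 33544752 estimated counts. KLF5 itself, the target, had 316 CPM in scramble and 37.2 and 44.0 CPM in shKLF5 libraries 1 and 2, where CPM is the count scaled to library size and by TMM, edgeR's correction for library composition. The log2 fold change (log2FC) of the shKLF5 group over scramble was -2.96 (SE 0.34), with an adjusted p of 0.169 by edgeR's quasi-likelihood test and 1.31e-06 by DESeq2. Of 10 squamous epithelial markers, 10 had 10 or more counts, and their summed TPM (kallisto's abundance, corrected for transcript length) was 2943 in scramble, 1219 in library 1 and 531 in library 2. In the same order, summed TPM was 16.8, 26.6 and 15.8 for 7 fibroblast genes (6 with 10 or more counts), 0.567, 2.13 and 2.49 for 6 endothelial genes (5), 4.30, 11.0 and 14.8 for 7 leukocyte genes (5) and 14.4, 20.5 and 20.6 for 8 neural genes (4). CDH5, KDR, CD3E, LYZ, STMN2 and SOX10 were at 0 counts in scramble, and at 1 to 14 in the shKLF5 libraries. Genes with few reads were seen more often after knockdown: 16993 genes had 10 or more counts in scramble, against 19389 and 19524. The part of these differences in the results below was not tested. In bulk RNA, fewer cells of a type and less RNA per cell cannot be told apart.

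No Eph, ephrin, semaphorin, plexin or neuropilin gene passed the test. With edgeR's quasi-likelihood test and a Benjamini-Hochberg adjusted p under 0.05, 0 of the 50 and 0 of all 20828 genes (0%) were called. At an unadjusted p under 0.05, 5 of the 50 were lower in shKLF5 than in scramble (SEMA6B, EPHB1, EFNB2, SEMA3E and PLXNA2), where 3.54% of all genes were. At the same threshold 4 of the 50 were higher (SEMA7A, SEMA5B, PLXNA4 and EPHA10), where 6.10% of all genes were. SEMA5B, PLXNA4 and EPHA10 had under 10 counts in scramble, so only the shKLF5 libraries brought them into the test. DESeq2, another count model, called 1 of the 50, SEMA7A, as higher, where it called 0.557% of all genes and 0.312% as higher. The legacy fit of edgeR called 0 of the 50 and 0.106% of all genes.

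By value alone, 24 of the 50 had lower CPM than scramble in both shKLF5 libraries, where 36.4% of all genes did. In both libraries 14 were higher (38.0% of all genes), and 12 lay on opposite sides of scramble (25.4%). The lower ones were 6 of 11 Eph receptors, 5 of 8 ephrins, 8 of 20 semaphorins, 4 of 9 plexins and 1 of 2 neuropilins. Of the 4 genes at least 2-fold lower in both libraries (2.45% of all genes were), 2 were semaphorins (SEMA6B and SEMA3E), 1 an Eph receptor (EPHB1) and 1 an ephrin (EFNB2). At least 2-fold higher in both were 5 (10.6% of all genes): EPHA10, EPHA8, PLXNA4, SEMA5B and SEMA7A. Of the 50 genes, 46 had 10 or more counts in scramble, and all 50 did in each shKLF5 library. EPHA10, EPHA8, PLXNA4 and SEMA5B had 6, 4, 1 and 0 counts in scramble and entered the test only through the shKLF5 libraries. The filter favours a higher value after knockdown for such genes, so their direction is no support for a gain. The median log2FC of the 50 was -0.28, beside 0.04 for all genes tested and -0.05 for the protein-coding ones. These counts depend on the scaling: with library size alone 10 of the 50 were lower in both, beside 12.6% of all genes, the median of the 50 was 0.15 and that of all genes 0.47. By TPM 6 were lower in both, beside 11.3%. With the median of all genes subtracted, the median of the 50 was -0.32 under both TMM and library size alone. A change between these scalings moves every gene by nearly the same amount, so this equality was fixed in advance and is no support.

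**Figure D1:**
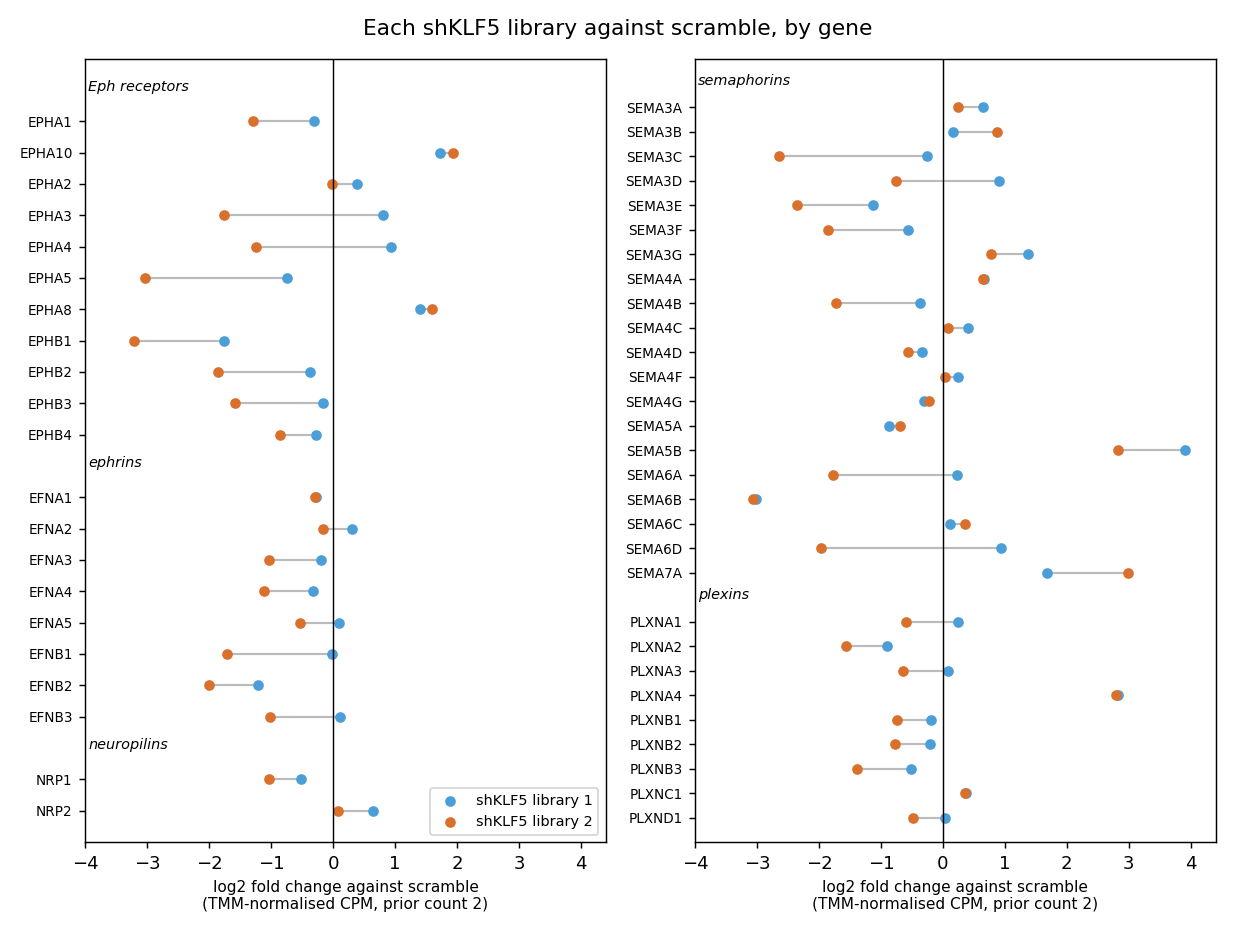
Log2 fold change of each of the 50 genes in shKLF5 library 1 and in library 2 against the single scramble library (x axis), on TMM-normalised CPM with a prior count of 2, grouped by family (y axis). Library 2 lies to the left of library 1 for 43 of the 50 genes; the points of SEMA5B and PLXNA4, with 0 and 1 counts in scramble, depend on the prior count.

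The shKLF5 libraries differed from each other across these families. In 43 of the 50 genes CPM was lower in library 2 than in library 1, where 49.7% of all genes and 53.5% of protein-coding genes were; the count was also 43 with library size alone and 41 by TPM. The 43 were all 8 ephrins, all 9 plexins, both neuropilins, 9 of 11 Eph receptors and 15 of 20 semaphorins. Library 2 was at least 2-fold below library 1 in 17 of the 50 (9.89% of all genes), and library 1 at least 2-fold below library 2 in 1, SEMA7A (9.08%). Set against scramble, the 50 had a median log2FC of 0.06 for library 1 and -0.75 for library 2, where all genes had medians of 0.00 and 0.03 and protein-coding genes -0.05 and -0.08. By family, the median in library 2 was -1.30 for Eph receptors, -1.03 for ephrins, -0.65 for plexins, -0.47 for neuropilins and -0.39 for semaphorins. The same medians in library 1 were -0.16, -0.11, 0.04, 0.07 and 0.19. KLF5 itself was at similar levels in both libraries (37.2 and 44.0 CPM), while the squamous markers were lower in library 2, and their part in this difference was not tested.

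KLF5 is known to bind GC-rich and CACCC elements, so the promoters of 4 genes at least 2-fold from scramble in both libraries are shown with these letters marked. These are the 3 of the 4 lower genes that the promoter table holds, and SEMA7A as the higher gene with the most counts; they were chosen after their values were seen. Where a gene has more than 1 window, the most upstream one is printed. The 250 bases before the start of transcription are from RefSeq (build GRCh38.p14), written 5′ to 3′ on the strand of the gene. Capitals mark GGGCGG or its reverse complement CCGCCC (GC box) and CACCC or its reverse complement GGGTG, and matches may overlap. The EPHB1 window is chr3:134795010-134795259 (plus strand), before a start inside the GENCODE span of the gene, that of EFNB2 is chr13:106535663-106535912 (minus strand), that of SEMA3E is chr7:83649140-83649389 (minus strand) and that of SEMA7A is chr15:74433959-74434208 (minus strand).
EPHB1: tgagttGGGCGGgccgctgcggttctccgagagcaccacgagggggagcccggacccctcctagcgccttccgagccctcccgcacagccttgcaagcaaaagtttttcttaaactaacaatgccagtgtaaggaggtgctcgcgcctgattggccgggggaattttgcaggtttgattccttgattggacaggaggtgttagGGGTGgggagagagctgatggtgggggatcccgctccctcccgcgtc
EFNB2: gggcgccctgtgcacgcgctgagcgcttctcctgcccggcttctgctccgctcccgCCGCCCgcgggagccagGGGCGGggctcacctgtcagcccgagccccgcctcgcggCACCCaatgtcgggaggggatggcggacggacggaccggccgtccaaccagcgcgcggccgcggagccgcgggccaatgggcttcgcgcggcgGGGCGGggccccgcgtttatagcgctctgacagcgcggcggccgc
SEMA3E: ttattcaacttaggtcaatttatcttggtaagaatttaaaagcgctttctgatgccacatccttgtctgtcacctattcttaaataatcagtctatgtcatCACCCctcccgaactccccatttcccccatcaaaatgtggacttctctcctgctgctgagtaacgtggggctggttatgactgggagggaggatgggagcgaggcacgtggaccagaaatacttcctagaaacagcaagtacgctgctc
SEMA7A: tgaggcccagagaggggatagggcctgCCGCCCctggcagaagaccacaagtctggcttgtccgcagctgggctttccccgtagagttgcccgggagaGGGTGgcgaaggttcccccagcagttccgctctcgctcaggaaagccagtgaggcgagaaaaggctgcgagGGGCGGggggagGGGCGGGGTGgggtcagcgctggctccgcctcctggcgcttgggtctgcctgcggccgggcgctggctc
The EPHB1, EFNB2 and SEMA7A windows hold 1, 3 and 3 GC boxes and the SEMA3E window 0, and the CACCC letters occur 1, 1, 2 and 1 times in the same order. Over all 35116 windows of this length, 42.6% held a GC box and 54.7% the CACCC letters. Of the 74 windows of the 47 genes of these families found in the table, 73.0% held a GC box and 68.9% the CACCC letters. Windows of the same gene were counted separately and may overlap almost fully, as those of EPHB2 do. The difference from all windows was not tested. The second SEMA7A window of the table holds 4 GC boxes and 0 CACCC letters, and the second SEMA3E window 0 and 0. Of the other genes at least 2-fold higher in both libraries, the single PLXNA4 window holds 0 GC boxes and 0 CACCC letters, the EPHA8 window 2 and 3, and the 3 SEMA5B windows 0, 2 and 0 GC boxes and 0, 1 and 2 CACCC letters. The PLXNA4 window lies wholly in annotated exons, as do some other windows of the families, such as that of EFNA1.

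Among the ephrins, the ligands of the Eph system, EFNB2 was lower in both shKLF5 libraries and EFNB1 was lower in library 2. EFNB2 (ENSG00000125266; chromosome 13, 106489731 to 106535662) encodes ephrin-B2, a ligand of EphB receptors and of EphA4. Here and below, positions are on GRCh38. EFNB2 had 2271, 1313 and 741 counts in scramble, library 1 and library 2, which is 85.4, 36.7 and 21.3 CPM. Both treated libraries lay below the control, 2.33-fold and 4.01-fold, at a mean of 29 ± 10.9 CPM (SD, n = 2). The fit gave a log2FC of -1.56 (SE 0.41, 95% CI -2.52 to -0.60), with an adjusted p of 0.451 by edgeR and 0.201 by DESeq2. All its reads were on 1 transcript, EFNB2-201.

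EFNB1 (ENSG00000090776; chromosome X, 68828997 to 68842147), ephrin-B1, was the most abundant ephrin per length, with 46.8, 65.0 and 18.5 TPM. In CPM it stood at 172, 171 and 52.1, so library 1 was level with scramble and library 2 was 3.30-fold below it. Its fitted log2FC of -0.63 (SE 0.60, 95% CI -2.01 to 0.76; edgeR adjusted p 0.748) covers both directions. EFNB3, an ephrin-B best known from the nervous system, had 19.0, 20.6 and 9.31 CPM, with library 2 2.04-fold below scramble and library 1 slightly above it.

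The ephrin-A genes lay within 2.17-fold of scramble in both treated libraries by CPM. EFNA5 (ENSG00000184349; chromosome 5, 107376889 to 107670895), a ligand of several EphA receptors, had 593, 848 and 534 counts, or 22.3, 23.7 and 15.4 CPM, with scramble between the treated libraries. The fitted value of -0.19 (SE 0.43; edgeR adjusted p 0.902) turned to 0.24 with library size alone and to 0.67 in log2(TPM + 1). In TPM it was 7.46, 14.1 and 11.0, higher in both treated libraries, and 4.16, 5.65 and 3.55 from protein-coding transcripts alone. The coding transcript EFNA5-201 had 535.2, 707.3 and 396.4 counts, and the processed transcript EFNA5-205, of 606 bases, had 45.2, 92.6 and 77.7. EFNA1, a ligand of EphA2, had 8.39, 6.90 and 6.81 CPM, lower in both treated libraries, but the fold change of -0.29 turned to 0.14 with library size alone. EFNA3 was 1.15-fold and 2.07-fold below scramble in libraries 1 and 2, and EFNA4 1.26-fold and 2.17-fold. EFNA2 was scarce, with 54, 90 and 63 counts.

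EPHA2 held the largest share of Eph receptor RNA, and its CPM was above scramble in library 1 and level with it in library 2. EPHA2 (ENSG00000142627; chromosome 1, 16124337 to 16156087) is the main Eph receptor of keratinocytes and of many carcinomas. It had 4981, 8788 and 6464 counts, or 187, 245 and 186 CPM. The fit gave a log2FC of 0.20 (SE 0.37, 95% CI -0.65 to 1.05; edgeR adjusted p 0.876), an interval that leaves out a 2-fold loss but not a 2-fold gain. Of the summed TPM of the 14 receptors (91.7, 138 and 83.5 in scramble, library 1 and library 2), EPHA2 held 49.4%, 59.7% and 69.5%. From protein-coding transcripts alone these shares were 52.4%, 61.4% and 73.0%. The share was larger in each shKLF5 library than in scramble, and it was not tested.

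Of the Eph receptors, EPHB1 had the lowest level relative to scramble. EPHB1 (ENSG00000154928; chromosome 3, 134597801 to 135260467), a receptor of ephrin-B ligands, had 434, 171 and 59 counts, or 16.3, 4.77 and 1.70 CPM. Libraries 1 and 2 were 3.42-fold and 9.63-fold below the control, at a mean of 3.24 ± 2.18 CPM (SD, n = 2). The fit gave a log2FC of -2.33 (SE 0.60, 95% CI -3.73 to -0.94), and the adjusted p was 0.447 by edgeR and 0.0914 by DESeq2. The long coding transcript EPHB1-201 had 355.8, 100.6 and 25.9 counts, or 13.4, 2.81 and 0.746 CPM, lower in both treated libraries. The shorter EPHB1-211 had 48.3, 63.2 and 25.1 counts, or 1.82, 1.76 and 0.721 CPM, near scramble in library 1 and below it in library 2. EPHB1-201 held 82.0%, 58.8% and 44.0% of the counts of the gene.

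The other EphB receptors were lower mainly in library 2. EPHB4 (ENSG00000196411; chromosome 7, 100802565 to 100827521), a receptor of ephrin-B2 and the most abundant EphB gene, had 2238, 2486 and 1627 counts and 84.2, 69.4 and 46.8 CPM. It had a log2FC of -0.54 (SE 0.39; edgeR adjusted p 0.674). Exons of EPHB4 overlap SLC12A9 on the opposite strand (1536, 1755 and 1048 counts), and whether counting used strand is not given in the sources used here. EPHB2 was 1.31-fold and 3.63-fold below scramble in libraries 1 and 2, and EPHB3 1.12-fold and 3.02-fold. Both receptors are known for sorting epithelial cells in the gut.

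EPHA3, EPHA4 and EPHA5 differed widely between the treated libraries. EPHA3 (ENSG00000044524; chromosome 3, 89107524 to 89482134), an ephrin-A receptor, had 229, 541 and 87 counts and 8.61, 15.1 and 2.50 CPM. EPHA4 (ENSG00000116106; chromosome 2, 221418027 to 221574202), which binds ephrins of both classes, had 249, 642 and 137 counts and 9.37, 17.9 and 3.94 CPM. In both genes scramble lay between library 1 and library 2, which were 6.04-fold and 4.55-fold apart. Fitted log2FC values were 0.03 (SE 0.87) and 0.22 (SE 0.78), with adjusted p of 0.992 and 0.940 by edgeR. EPHA3 turned to -0.01 with no filter on low counts. EPHA3 and EPHA4 were 2 of 4 genes of the families that were above scramble in library 1 and below it in library 2 by at least 1.5-fold each, a pattern of 1.03% of all genes, while 1.88% were that far apart in either order; the others were SEMA6D and SEMA3D. EPHA5 had 15.9, 9.55 and 1.90 CPM, lower in both libraries, with a log2FC of -1.48 (SE 0.77) and library 2 5.03-fold below library 1. EPHA1, whose exons overlap ZYX on the opposite strand, had 40, 43 and 20 counts.

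A pair of receptors nearly silent in scramble had more reads after knockdown. Both reached 10 counts only in the shKLF5 libraries, which brought them into the test, so their direction is no support for a gain. EPHA10 (ENSG00000183317; chromosome 1, 37713880 to 37765133), a receptor whose kinase domain is inactive, had 6, 32 and 36 counts and 0.226, 0.893 and 1.03 CPM, with a log2FC of 2.08 (SE 0.78; edgeR adjusted p 0.480). EPHA8 (ENSG00000070886; chromosome 1, 22563564 to 22603594), a receptor studied in the midbrain, had 4, 18 and 20 counts and 0.150, 0.503 and 0.575 CPM, with 1.81 (SE 0.86; edgeR adjusted p 0.546). By CPM the treated libraries lay close together in both genes, 3.96-fold and 4.59-fold and 3.34-fold and 3.82-fold above scramble, at 1.09 TPM or less. EPHA10 had 0.0501, 1.09 and 0.469 TPM, and 0.0378, 0.188 and 0.177 from protein-coding transcripts alone. Of the 9 genes of the families under 50 counts in scramble, 7 were higher in both shKLF5 libraries and 4 at least 2-fold higher in both. Among all 7999 genes tested with under 50 counts in scramble, 61.0% were higher in both and 26.1% at least 2-fold higher in both.

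**Figure D2:**
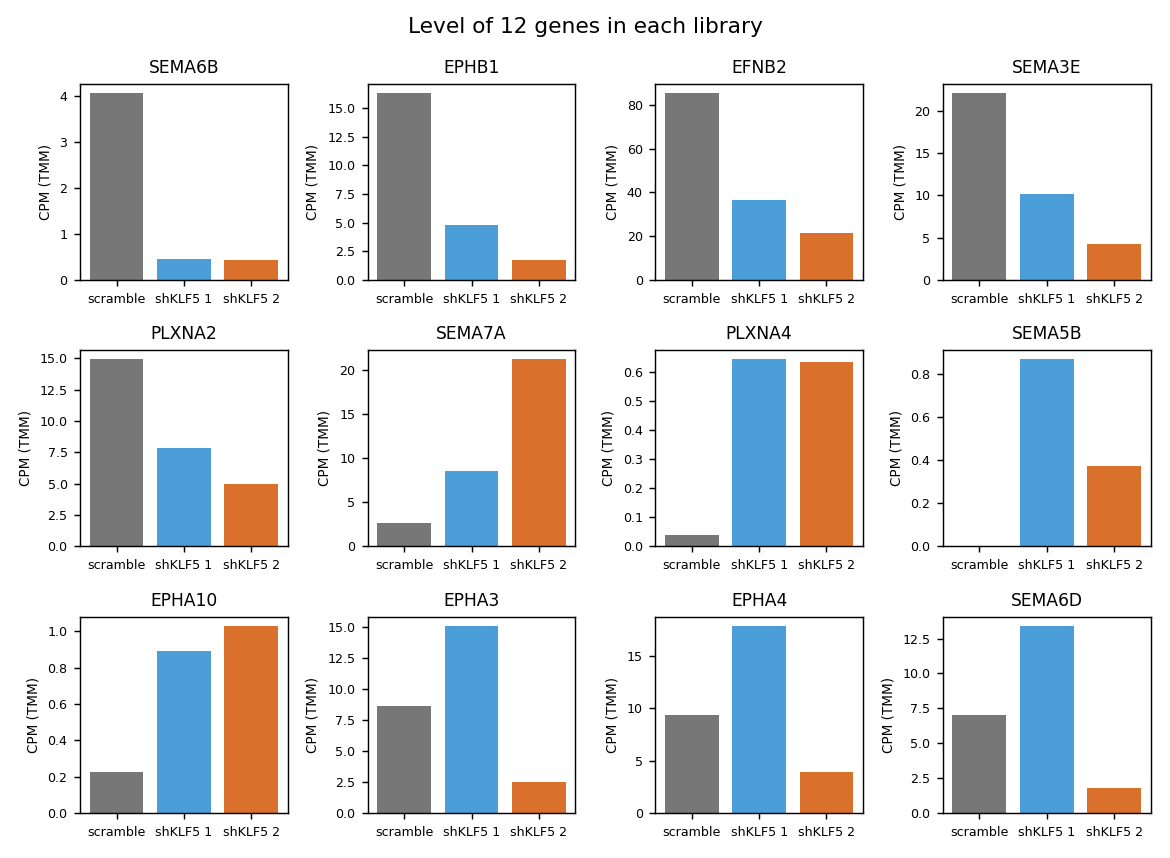
TMM-normalised CPM (y axis, a separate scale per panel) of 12 genes in scramble, shKLF5 library 1 and shKLF5 library 2, 1 bar per library and no error bar. SEMA6B, EPHB1, EFNB2, SEMA3E and PLXNA2 are lower in both treated libraries, SEMA7A, PLXNA4, SEMA5B and EPHA10 are higher in both, and EPHA3, EPHA4 and SEMA6D are higher in library 1 and lower in library 2.

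SEMA3C made up most of the secreted class 3 semaphorin RNA in scramble. SEMA3C (ENSG00000075223; chromosome 7, 80742538 to 80922359), a ligand linked to growth and motility in several carcinomas, had 5521, 6229 and 1154 counts and 208, 174 and 33.2 CPM. Libraries 1 and 2 were 1.19-fold and 6.26-fold below scramble and 5.24-fold apart from each other. Its fitted log2FC of -1.0 (SE 0.75, 95% CI -2.73 to 0.72; edgeR adjusted p 0.681) did not exceed that spread. SEMA3C held 39.3%, 37.8% and 16.0% of semaphorin TPM, which summed to 111, 137 and 61.7.

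SEMA3E was lower in both treated libraries. SEMA3E (ENSG00000170381; chromosome 7, 83363238 to 83649113), a ligand that binds plexin-D1 without needing a neuropilin, had 587, 361 and 148 counts and 22.1, 10.1 and 4.25 CPM. Libraries 1 and 2 were 2.19-fold and 5.19-fold below scramble, at a mean of 7.17 ± 4.12 CPM (SD, n = 2). The fit gave a log2FC of -1.62 (SE 0.54, 95% CI -2.87 to -0.38), with an adjusted p of 0.466 by edgeR and 0.397 by DESeq2. Its main coding transcripts had the same order, with 347.8, 193.9 and 94.9 counts for SEMA3E-201 and 234.0, 159.9 and 53.1 for SEMA3E-202.

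Of the other class 3 genes, SEMA3F, a ligand of neuropilin-2, had 25.1, 16.9 and 6.93 CPM, lower in both treated libraries. SEMA3B had 3.20, 3.60 and 5.89 CPM and SEMA3A, known for collapsing growth cones, had 2.33, 3.69 and 2.76; both were above scramble in each treated library by less than 2-fold. SEMA3G had 11, 42 and 26 counts. SEMA3D (ENSG00000153993; chromosome 7, 84995553 to 85186855) had 40, 103 and 30 counts and 1.5, 2.88 and 0.862 CPM, on opposite sides of scramble, with a log2FC of 0.31 (SE 0.78; edgeR adjusted p 0.913).

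Class 4 semaphorins are transmembrane ligands, several of them of the B plexins. SEMA4B (ENSG00000185033; chromosome 15, 90160604 to 90229679), the most abundant of the class, had 2089, 2180 and 822 counts and 78.6, 60.9 and 23.6 CPM, 1.29-fold and 3.33-fold below scramble in libraries 1 and 2. It had a log2FC of -0.90 (SE 0.53; edgeR adjusted p 0.615). SEMA4D, the ligand of plexin-B1, had 26.6, 20.9 and 17.9 CPM; it was lower in both libraries by CPM, and its fold change of -0.45 turned to 0.13 in log2(TPM + 1). SEMA4C, a ligand of plexin-B2, had 16.4, 21.7 and 17.4 CPM, and SEMA4F had 5.57, 6.64 and 5.72. SEMA4G, whose exons overlap MRPL43 on the opposite strand, had 5.49, 4.41 and 4.71 CPM, and its fold change of -0.27 turned to 0.16 with library size alone. SEMA4A was scarce, with 13, 29 and 28 counts.

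By fitted log2FC, SEMA6B was the furthest from scramble of the genes of these families with 10 or more counts in each library, though in library 2 alone EPHB1 was further below (9.63-fold). SEMA6B (ENSG00000167680; chromosome 19, 4542593 to 4559808), a transmembrane ligand of A plexins, had 108, 16 and 15 counts, or 4.06, 0.447 and 0.431 CPM. The treated libraries were nearly equal and lay 9.09-fold and 9.42-fold below scramble, at a mean of 0.439 ± 0.0110 CPM (SD, n = 2). The fit gave a log2FC of -3.20 (SE 0.57, 95% CI -4.51 to -1.88). The adjusted p was 0.308 by edgeR, the lowest of the 50, and 0.0677 by DESeq2. The transcript SEMA6B-202 had 106.8, 7.0 and 3.7 counts while SEMA6B-201 had 0.0, 9.4 and 9.3, so most of the difference was in 1 transcript. The level was low in scramble too, at 1.93 TPM.

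The remaining class 5 and 6 genes were weakly expressed. SEMA6D (ENSG00000137872; chromosome 15, 47184101 to 47774223), a ligand of plexin-A1, had 186, 480 and 61 counts and 7.0, 13.4 and 1.75 CPM. Its treated libraries were 7.64-fold apart, the widest gap of the 50 genes. The fitted value of 0.12 (SE 0.95; edgeR adjusted p 0.975) turned to -0.06 in log2(TPM + 1). SEMA6A had 4.89, 5.70 and 1.38 CPM, also highest in library 1 and lowest in library 2, and SEMA6C had 2.07, 2.26 and 2.64. SEMA5A (ENSG00000112902; chromosome 5, 9035026 to 9546075), a ligand of plexin-B3, had 72, 52 and 57 counts and 2.71, 1.45 and 1.64 CPM. Its fitted log2FC of -0.81 (SE 0.55; edgeR adjusted p 0.660) turned to 0.12 in log2(TPM + 1). SEMA5B (ENSG00000082684; chromosome 3, 122909082 to 123028605) had 0, 31 and 13 counts and an adjusted p of 0.457 by edgeR. With scramble placed at a floor of 3 counts, library 1 was at least 7.67-fold higher and library 2 at least 3.31-fold higher. The treated libraries differed in the main transcript. SEMA5B-202 had 0.0, 27.1 and 2.9 counts and SEMA5B-207 had 0.0, 3.9 and 10.1.

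SEMA7A was the most different gene on the higher side among genes of these families with 50 or more counts in scramble. SEMA7A (ENSG00000138623; chromosome 15, 74409289 to 74433958) encodes the semaphorin held to the membrane by a lipid anchor, a ligand of plexin-C1 and of beta-1 integrin. It had 70, 308 and 738 counts, or 2.63, 8.60 and 21.2 CPM. Libraries 1 and 2 were 3.27-fold and 8.06-fold above the control and 2.47-fold apart, at a mean of 14.9 ± 8.92 CPM (SD, n = 2). The fit gave a log2FC of 2.50 (SE 0.67, 95% CI 0.95 to 4.05). The adjusted p was 0.457 by edgeR and 0.0333 by DESeq2, and over all alternatives with a test across genes it ran from 0.0333 to 0.794. The coding transcripts SEMA7A-202 (46.5, 180.2 and 504.5 counts) and SEMA7A-203 (20.0, 88.1 and 185.9) had the same order. Of the 41 genes of the families with 50 or more counts in scramble, it was the 1 that was at least 2-fold higher in both libraries, as were 0.982% of all such genes. It held 1.05%, 2.79% and 14.5% of semaphorin TPM. SEMA7A is also expressed by leukocytes, and the summed leukocyte marker TPM had the same order (4.30, 11.0 and 14.8, with CD3E and LYZ at 0 counts in scramble and 3 to 7 after knockdown); its part in this result was not tested.

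**Figure D3:**
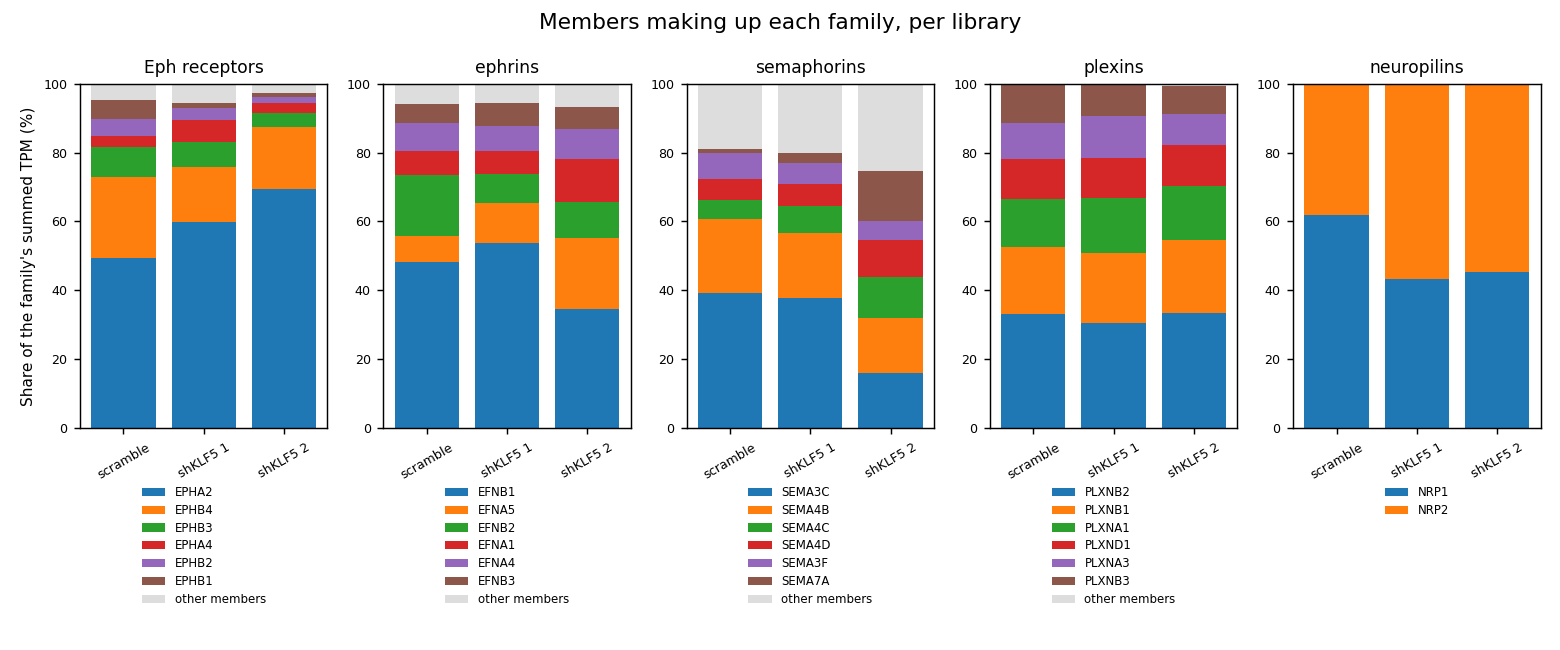
Share of each gene in the summed TPM of its family, in percent (y axis), in scramble, shKLF5 library 1 and shKLF5 library 2 (x axis), 1 panel per family. EPHA2 holds 49.4%, 59.7% and 69.5% of Eph receptor TPM, and SEMA3C holds 39.3%, 37.8% and 16.0% of semaphorin TPM.

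The plexins had the highest summed level of these families, and none was 2-fold apart between the shKLF5 libraries. Their TPM summed to 300, 385 and 241, and to 147, 192 and 113 from protein-coding transcripts alone. PLXNB2 (ENSG00000196576; chromosome 22, 50274979 to 50307627), the receptor of SEMA4C and the most abundant plexin, had 13205, 15348 and 10076 counts and 497, 428 and 290 CPM. Both treated libraries were below scramble, 1.16-fold and 1.71-fold, with a log2FC of -0.47 (SE 0.38; edgeR adjusted p 0.711). It held 33%, 30.5% and 33.3% of plexin TPM, and 41.8%, 40.2% and 42.4% from protein-coding transcripts alone. PLXNB1, the receptor of SEMA4D, had 130, 114 and 78.3 CPM, lower in both libraries, and its fold change of -0.44 turned to 0.12 in log2(TPM + 1). PLXNB3, the receptor of SEMA5A, had 82.6, 57.8 and 31.4 CPM and log2FC -0.89 (SE 0.43). Its exons overlap SRPK3 on the same strand (133, 174 and 329 counts).

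Of the A plexins, the co-receptors of class 3 semaphorins, PLXNA2 was lower in both treated libraries. PLXNA2 (ENSG00000076356; chromosome 1, 208022242 to 208244320) had 396, 282 and 173 counts, or 14.9, 7.87 and 4.97 CPM, 1.89-fold and 3.0-fold below scramble, at a mean of 6.42 ± 2.05 CPM (SD, n = 2). It had a log2FC of -1.21 (SE 0.47, 95% CI -2.29 to -0.13), with an adjusted p of 0.480 by edgeR and 0.739 by DESeq2. PLXNA1 (ENSG00000114554; chromosome 3, 126988594 to 127037392), the most abundant A plexin, had 7191, 11522 and 6247 counts and 270, 322 and 180 CPM, on opposite sides of scramble. The fitted value of -0.11 (SE 0.43; edgeR adjusted p 0.945) turned to 0.32 with library size alone. PLXNA3 had 81.5, 85.9 and 51.8 CPM, and its fold change of -0.24 turned to 0.19 in the same way. PLXNA4 (ENSG00000221866; chromosome 7, 132123332 to 132648688), a receptor of SEMA6 ligands and of SEMA3A, had 1, 23 and 22 counts and an adjusted p of 0.466 by edgeR. The ratio to scramble was 17.1 in library 1 (exact binomial 95% interval 2.77 to 703) and 16.8 in library 2 (2.72 to 694), and these intervals cover counting error only.

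PLXNC1 (ENSG00000136040; chromosome 12, 94148723 to 94307675), the receptor of SEMA7A, was nearly silent, with 29, 51 and 49 counts, and its exons overlap CEP83 on the opposite strand. It had a log2FC of 0.38 (SE 0.61; edgeR adjusted p 0.859). ITGB1, the gene of the integrin subunit that also binds SEMA7A, had 24260, 22190 and 18901 counts and log2FC -0.65 (SE 0.36; edgeR adjusted p 0.591). PLXND1 (ENSG00000004399; chromosome 3, 129555175 to 129606818), the receptor of SEMA3E, had 2385, 3310 and 2239 counts and 89.7, 92.4 and 64.4 CPM. Its fitted log2FC of -0.19 (SE 0.38; edgeR adjusted p 0.887) turned to 0.23 with library size alone.

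The neuropilins, co-receptors of class 3 semaphorins and of VEGF, lay on different sides of scramble by CPM. NRP2 (ENSG00000118257; chromosome 2, 205681990 to 205798133) had 1108, 2349 and 1533 counts and 41.7, 65.6 and 44.1 CPM, higher in both treated libraries. It had a log2FC of 0.40 (SE 0.41, 95% CI -0.54 to 1.33; edgeR adjusted p 0.765). NRP1 had 78.0, 54.3 and 38.2 CPM, 1.44-fold and 2.04-fold below scramble in libraries 1 and 2, with a log2FC of -0.75 (SE 0.38; edgeR adjusted p 0.563) that turned to 0.04 in log2(TPM + 1). NRP2 held 38.0%, 56.8% and 54.8% of the TPM of the pair, and 36.6%, 51.8% and 46.7% from protein-coding transcripts alone. The NRP1 transcripts, looked at after these values were seen, also differed: NRP1-206 held 71.9%, 46.1% and 35.5% of NRP1 counts. The difference between the 2 neuropilins was not tested.

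Downstream of these receptors, 64 signalling partners were listed (adaptors, small GTPases and their regulators, kinases, collapsin response mediators, sheddases and co-receptors), of which 63 were tested and 0 were called by edgeR. DESeq2 called 1 of the 63, ABL2, as higher, where it called 0.557% of all genes and 0.312% as higher. By CPM, 36 of the 63 were lower than scramble in both shKLF5 libraries (36.4% of all genes), 13 were higher in both (38.0%) and 14 lay on opposite sides (25.4%). Their median log2FC was -0.21, beside 0.04 for all genes tested and -0.05 for the protein-coding ones. The partner counts by side of scramble are under TMM alone, and no other scaling was examined for them. At an unadjusted p under 0.05 by edgeR, 3 were higher (6.10% of all genes) and 5 lower (3.54%).

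On the higher side, ABL2, a cytoplasmic tyrosine kinase that acts on actin, had 102, 826 and 971 counts and log2FC 2.73 (SE 0.48), with an adjusted p of 0.308 by edgeR and 4.38e-04 by DESeq2. RND1, which binds plexins, had 12, 58 and 113 counts and 2.42 (SE 0.78; edgeR adjusted p 0.466). FES, a kinase of SEMA3A signalling, had 1, 12 and 22 counts, so only the shKLF5 libraries brought it into the test. With 1 count in scramble, the ratio was 8.91 in library 1 (exact binomial 95% interval 1.32 to 381) and 16.8 in library 2 (2.72 to 694). On the lower side were CRMP1 and DPYSL2, collapsin response mediators that carry semaphorin signals to microtubules: CRMP1 had 3900, 2306 and 1727 counts and -1.36 (SE 0.35), and DPYSL2 had 1119, 579 and 239 and -1.87 (SE 0.51). VAV3, an exchange factor recruited by Eph receptors, had 1525, 924 and 240 counts and -1.81 (SE 0.64). LYN, a SRC family kinase, had 1201, 886 and 720 counts and -0.99 (SE 0.37), and ERBB2, a receptor kinase that associates with B plexins, had 1213, 932 and 778 and -0.92 (SE 0.37). For these 5 the adjusted p by edgeR was 0.447, 0.460, 0.468, 0.480 and 0.493.

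**Figure D4:**
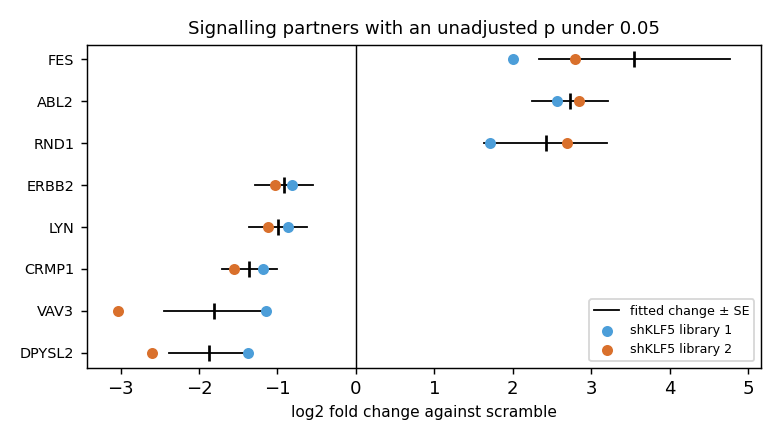
Log2 fold change of the 8 signalling partners with an unadjusted p under 0.05, with the SE of the edgeR fit as bars and the 2 shKLF5 libraries as points. ABL2, RND1 and FES are higher and CRMP1, DPYSL2, VAV3, LYN and ERBB2 lower in both libraries; the library points use a prior count of 2, so those of FES, with 1 count in scramble, lie below its fitted value, which also depends on the prior count.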

How the data were processed

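RNA-seq of 3 TE5 libraries was analysed, 1 scramble and 2 shKLF5, grouped by the labels. Each file deposited by the authors lists transcripts with their length, estimated counts and TPM, per the file headers. Estimated counts were deposited without normalisation, while deposited TPM is corrected for effective length. The submitters' processing notes name kallisto, DESeq2 and the build hg19 and give no versions. Index and strand setting: not given in the sources used here.

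Of 196354 transcripts, 181857 (92.6%) matched GENCODE 29 by identifier; the others held 3.05% to 3.42% of counts. Estimated counts were summed per gene and rounded, and 20828 genes with 10 or more counts in any library entered edgeR 4.0.16 under R 4.3.3 (quasi-likelihood F test, legacy = FALSE, TMM factors 0.82, 1.11 and 1.10, Benjamini-Hochberg adjustment, threshold 0.05; common biological coefficient of variation 33.2%). Intervals are at 95%. The floor of 3 counts and the exact binomial intervals cover counting error only, and reads carried no molecular identifiers. Alternatives were DESeq2 1.42.0, limma 3.58.1 on log2 TPM with pseudocounts of 1 and 0.1, other scalings, filters, length-scaled TPM, and leaving out each shKLF5 library. The scripts were tested on simulated data.

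Full values are given for the most abundant gene of each subfamily by mean TPM, genes with an unadjusted p under 0.05, genes at least 2-fold from scramble in the same direction in both libraries, and genes at least 1.5-fold from scramble in opposite directions; every other tested gene is named. One neural marker is not reported here by name. Partners are named at an unadjusted p under 0.05, and ITGB1 was added after its values were seen. The genes and lists were chosen with earlier results of these data known.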

Additional observations from a re-analysis of the deposited data

How the results depend on the processing

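No paired analysis was possible because the labels give the scramble library no replicate number, so the groups share fewer than 2 numbers. With 1 scramble library, its own variation is taken to be that between the shKLF5 libraries, and with 1 residual degree of freedom no gene passed edgeR's main test. The KLF5 log2 fold change of -2.96 passed with edgeR's legacy fit (-2.96, adjusted p 0.0143) and DESeq2 (-2.97, adjusted p 1.31e-06). Without 1 shKLF5 library it was -3.05 to -2.84. All genes called numbered 22 with the legacy fit and 116 with DESeq2. DESeq2 called 1 gene of the families and 1 signalling partner. Sources used here do not give the strand setting, and kallisto divides reads between paralogs and overlapping genes.

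The median of the 50 genes (-0.28) reversed to 0.15 with library size alone, 0.12 in log2(TPM + 1) and 0.13 in log2(TPM + 0.1). It was -0.75 to 0.09 with 1 shKLF5 library left out, -0.75 being without library 1 and 0.09 without library 2. The count lower in both libraries (24) was 10 with library size alone, 6 by TPM and 24 to 36 with 1 library left out. The count higher in both (14) was 14 to 26 with 1 library left out, 26 being without library 2. With 1 library left out the rule asks about the remaining library alone, so neither count could fall, and these ranges are no support. The counts by scaling, by TPM and without a library were chosen after seeing the data.

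Of the 50 fold changes, 35 kept their direction under each alternative that included the gene, other than leaving out a library, and 15 did not. A mean CPM of at least 5 left out part of the 50 (32 kept their direction there and 1 reversed). The legacy fit and DESeq2 gave nearly the same fold changes as the main fit for most genes. They could hardly reverse a direction, so holding under them is little support. With library size alone the reversed values were EFNA1 0.14, EFNA5 0.24, EFNB3 0.08, PLXNA1 0.32, PLXNA3 0.19, PLXND1 0.23 and SEMA4G 0.16. In log2(TPM + 1) they were EFNA1 0.13, EFNA5 0.67, EPHA1 0.12, NRP1 0.04, PLXNA1 0.22, PLXNA3 0.04, PLXNB1 0.12, PLXND1 0.01, SEMA4D 0.13, SEMA5A 0.12, SEMA6A 0.20 and SEMA6D -0.06. In log2(TPM + 0.1) they were EFNA1 0.15, EFNA5 0.73, EPHA1 0.22, NRP1 0.04, PLXNA1 0.22, PLXNA3 0.03, PLXNB1 0.12, PLXND1 0.01, SEMA4D 0.15, SEMA5A 0.30, SEMA6A 0.24 and SEMA6D -0.23. With length-scaled TPM they were EFNA5 0.29, SEMA5A 0.07, SEMA6A 0.03 and SEMA6D -0.20. EPHA3 was -0.01 with no filter on low counts, and PLXNA1 0.06 with a mean CPM of at least 5. The cause was not tested for any of these. Over all alternatives with a test across genes, the adjusted p ran from 0.0646 to 0.611 for SEMA6B, 0.0914 to 0.814 for EPHB1, 0.201 to 0.814 for EFNB2, 0.318 to 0.892 for SEMA3E and 0.436 to 0.892 for PLXNA2. DESeq2 gave no adjusted p for SEMA5B, PLXNA4, EPHA8 and SEMA4A.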

Other observations

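Several of these genes are close neighbours in GENCODE 29. On chromosome 1, EFNA4 and EFNA3 lie 9.32 kb apart and EFNA3 and EFNA1 39.9 kb apart, and their log2 fold changes were -0.67, -0.57 and -0.29. On chromosome 3, SEMA3F and SEMA3B lie 78.5 kb apart, with -1.07 and 0.57. On chromosome 7, SEMA3E and SEMA3A lie 307 kb apart and SEMA3A and SEMA3D 503 kb apart, with -1.62, 0.47 and 0.31. EPHA8 and EPHB2 lie 107 kb apart on chromosome 1, with 1.81 and -0.94. No difference between neighbours was tested.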
